A study of Homo sapiens with 6 samples.

Results

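Human embryonic stem cells homozygous for the S1344L change of DICER1 were compared with cells hemizygous for it, across 16199 genes. The comparison uses 4 of the 6 samples of the series, 2 homozygous and 2 hemizygous, chosen by the genotype in their titles, and the 2 wild-type samples are given beside them as a reference level. All samples are H1, an established human embryonic stem cell line, and no treatment or time point is given. Whether a genotype's pair of samples came from different clones or cultures is not in the labels, nor is what the other DICER1 allele of the hemizygous cells carries. A p-value below therefore reads sample-to-sample spread that could be purely technical.

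DICER1 cuts hairpin precursors into short microRNA duplexes, with a 5p strand from one arm of the hairpin and a 3p strand from the other. Its RNase IIIa domain makes the cut at the 3p arm and its RNase IIIb domain the cut at the 5p arm, and the serine replaced in S1344L lies in RNase IIIa. A microRNA loaded into an Argonaute protein lowers messages whose 3′ UTR pairs with its seed, bases 2 to 8. In embryonic stem cells the miR-302 and miR-17 families are among the abundant ones, and let-7 is held low by LIN28A and LIN28B. MicroRNAs themselves were not measured in these libraries, which count messenger and other long RNAs.

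The sequences below are the RefSeq mature strands (GRCh38.p14) of 4 stem cell hairpins and of let-7a, both arms of each, with the seed in capitals. They are shown because the 2 arms of 1 hairpin have different seeds, so that each arm has its own set of candidate messages.
hsa-miR-302a-5p: aCUUAAACguggauguacuugcu
hsa-miR-302a-3p: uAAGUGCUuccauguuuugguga
hsa-miR-17-5p: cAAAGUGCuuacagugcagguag
hsa-miR-17-3p: aCUGCAGUgaaggcacuuguag
hsa-miR-92a-1-5p: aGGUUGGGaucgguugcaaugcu
hsa-miR-92a-3p: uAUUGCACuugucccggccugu
hsa-miR-367-5p: aCUGUUGCuaauaugcaacucu
hsa-miR-367-3p: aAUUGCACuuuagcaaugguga
hsa-let-7a-5p: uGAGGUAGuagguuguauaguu
hsa-let-7a-3p: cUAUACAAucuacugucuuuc
The seeds of miR-302a-3p and miR-17-5p share most of their letters, and miR-92a-3p and miR-367-3p have the same seed.

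The counts of hemizygous 1 and 2 totalled 39693194 and 51598026, and those of homozygous 1 and 2 totalled 46152759 and 39565897. Expression is given in CPM, counts scaled by library size and TMM factor, with no correction for gene length. On the first principal component of these 4 samples, with 69.8% of the variance, hemizygous 1 stood at 38.5 and the others at -23.8 to 1.79. On the second, with 20.7%, homozygous 1 stood at -22.7 and the others at 6.80 to 8.53. Hemizygous 1 and 2 differed more than 2-fold in 505 genes and homozygous 1 and 2 in 113. Ribosomal protein genes held the smallest share of counts in hemizygous 1, at 4.56%, against 6.49% in hemizygous 2 and 5.88% and 6.83% in the homozygous samples.

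Few genes were called between the 2 genotypes, and how many rested on the test and on the pairing of samples by replicate number. Without pairing, the edgeR quasi-likelihood test on all 6 samples called 0 genes higher and 0 lower in homozygous samples at an adjusted p under 0.05 (0% of genes tested). It placed 124 genes (0.765%) at an unadjusted p under 0.05, 65 higher (0.401%) and 59 lower (0.364%), and limma-voom also called 0, with 118 genes (0.728%) at an unadjusted p under 0.05. DESeq2 without pairing called 8 genes higher (0.0494%) and 2 lower (0.0123%). With the replicate number as a block, edgeR called 0 higher and 1 lower (0.00617%), limma-voom called 0 higher and 1 lower (0.00617%), and DESeq2 called 11 higher (0.0679%) and 13 lower (0.0803%). At an unadjusted p under 0.05 the block raised the share of genes to 8.20% in edgeR, 8.58% in limma-voom and 5.99% in DESeq2, which had 0.907% without it. The 10 genes that DESeq2 called without the block were all among its 24 with the block. The replicate numbers come from the sample titles, which do not say what a number marks.

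The gene called by the most tests was ASMTL, an acetylserotonin O-methyltransferase-like gene in the pseudoautosomal region (GRCh38, X:1403139-1453762). It was at 12.1 and 17.3 CPM in hemizygous 1 and 2 and at 0.771 and 0.714 CPM in homozygous 1 and 2, and wild type 1 and 2 were at 1.00 and 0.793 CPM. Both hemizygous samples were thus above all 4 others. The log2 fold change, homozygous minus hemizygous, was -4.30 ± 0.30 (SE; edgeR adjusted p = 0.0515), and it fell with the replicate block (edgeR adjusted p = 0.0094) and in DESeq2 without it (adjusted p = 2.5e-30). Reads of ASMTL cannot be told apart from those of its antisense gene ASMTL-AS1, since the library kit does not keep the strand. Among 8 measured neighbours on the X chromosome the log2 fold changes ran from -0.76 to 2.41 with a median of -0.07.

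REC8, the meiotic cohesin subunit, had the largest difference in the other direction. It was at 5.22 and 2.49 CPM in homozygous 1 and 2 and at 0.130 and 0.0759 CPM in hemizygous 1 and 2, which rest on 5 and 4 counts. Wild type 1 and 2 were at 0.501 and 1.82 CPM, between the 2 edited genotypes. REC8 rose in DESeq2 (adjusted p = 1.8e-06, and 2.7e-08 with the replicate block), while edgeR gave 5.23 ± 0.83 (SE) on the log2 scale with an adjusted p of 0.999 and 0.44 with the block. With the 4 edited samples alone and the block, edgeR called REC8 too (1 gene higher, 0.00617%, and 5.94% of genes at an unadjusted p under 0.05). The 4 samples alone without the block gave 0 calls, with 0.864% of genes at an unadjusted p under 0.05. REC8 overlaps IPO4 on the opposite strand.

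PSME2, a subunit of the proteasome activator PA28, is a measured neighbour of REC8 on chromosome 14 and went the other way. It was at 12.4 and 14.2 CPM in hemizygous 1 and 2 and at 2.60 and 7.56 CPM in homozygous 1 and 2, with wild type at 9.60 and 9.21 CPM. Both homozygous samples lay below all others, homozygous 1 well below homozygous 2. PSME2 fell in DESeq2 with the replicate block (adjusted p = 0.0018), and not without it. Its log2 fold change was -1.39 ± 0.45 (SE), and it was -0.82 without homozygous 1 and -2.35 without homozygous 2. All fits here that left out 1 sample had no replicate block, so they did not pair samples.

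MOAP1, which encodes a BAX-binding promoter of apoptosis, was at 0.859 and 1.03 CPM in homozygous 1 and 2 and at 0.130 and 0.0949 CPM in hemizygous 1 and 2, which rest on 5 counts each. Wild type was at 1.72 and 1.84 CPM, so that the hemizygous samples were the lowest and the homozygous samples lay between. MOAP1 rose in DESeq2 (adjusted p = 0.011, and 0.024 with the replicate block) and stood at 3.06 ± 0.39 (SE) on the log2 scale in edgeR, with an adjusted p of 0.935. MOAP1 is 1 of 10 measured neighbours of DICER1 on chromosome 14, whose median log2 fold change was 0.07.

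ZNF492, a KRAB zinc-finger gene of chromosome 19, was at 2.56 and 1.99 CPM in homozygous 1 and 2, 0.365 and 0.323 CPM in hemizygous 1 and 2, and 2.28 and 1.30 CPM in wild type. Homozygous and wild-type samples overlapped, and both hemizygous samples were below them. ZNF492 rose in DESeq2 (adjusted p = 0.00094, and 0.00051 with the replicate block), with 2.72 ± 0.40 (SE) on the log2 scale. The neighbouring pseudogene ZNF849P had the same log2 fold change of 2.72 ± 0.49 (SE; DESeq2 adjusted p = 0.34), from 0.156 and 0.114 CPM in hemizygous and 0.771 and 1.01 CPM in homozygous samples. Zinc-finger genes of such clusters are near copies of each other, and how reads were shared between them is not given in the sources used here. A gene on the opposite strand, AC024563.1, overlaps both ZNF492 and ZNF849P. Its reads cannot be told apart from theirs, since the library kit does not keep the strand.

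FAM3C2P, a pseudogene of FAM3C on the X chromosome, was at 12.3 and 5.07 CPM in hemizygous 1 and 2 and at 2.05 and 1.92 CPM in homozygous 1 and 2. Wild type was at 2.10 and 2.94 CPM, close to the homozygous level. FAM3C2P fell in DESeq2 (adjusted p = 0.01, and 0.00016 with the replicate block), and its log2 fold change was -2.13 ± 0.45 (SE) and -1.35 without hemizygous 1. Its reads may include reads from FAM3C, which was not tested.

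The other genes that DESeq2 called without the block were EMC10 and MYH14, described with their neighbours below, and 3 genes listed by Ensembl ID. ENSG00000269968, an antisense gene of chromosome 12, was at 9.25 and 7.63 CPM in homozygous and 2.74 and 2.20 CPM in hemizygous samples. ENSG00000273149, an antisense gene of chromosome 13, was at 4.78 and 4.41 CPM in homozygous and 0.89 and 0.99 CPM in hemizygous samples. Both rose in DESeq2 with and without the replicate block.

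**Figure D1:**
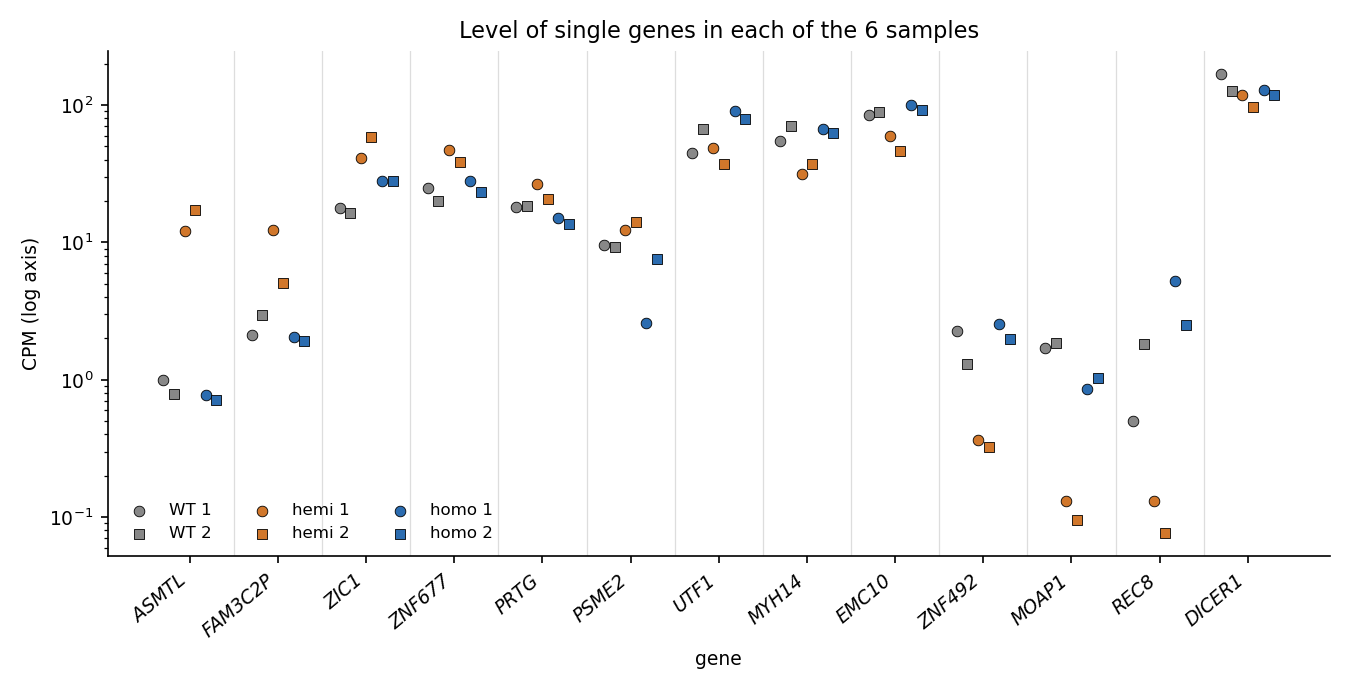
CPM on a log axis for 13 genes, one point per sample, with circles for replicate 1 and squares for replicate 2 of wild type (grey), hemizygous (orange) and homozygous (blue) samples. ASMTL is above 12 CPM in both hemizygous samples and at or below 1.00 CPM in the other 4, and the samples lie close together at DICER1.

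With the replicate block, DESeq2 added UTF1, LINC02575 and CLEC11A among genes higher in homozygous samples. UTF1, a chromatin-bound factor of undifferentiated embryonic stem cells, was at 90.0 and 78.9 CPM in homozygous 1 and 2 and at 49.1 and 37.4 CPM in hemizygous 1 and 2. Both homozygous samples were also above wild type, at 44.6 and 66.6 CPM. UTF1 rose (log2 fold change 0.97 ± 0.23, SE; DESeq2 adjusted p = 0.00079 with the block and 0.30 without). LINC02575, a long noncoding RNA, was at 38.8 and 24.3 against 23.9 and 12.3 CPM and rose with the block (DESeq2 adjusted p = 0.0018) and not without it. Its log2 fold change of 0.81 was 1.35 without hemizygous 1, 0.40 without hemizygous 2 and 0.43 without homozygous 1.

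ZIC1, a transcription factor of dorsal neural tissue, was at 41.0 and 58.9 CPM in hemizygous 1 and 2 and at 28.2 and 28.0 CPM in homozygous 1 and 2. Wild type was at 17.9 and 16.3 CPM, so that the homozygous samples lay between wild type and hemizygous. ZIC1 fell with the block (log2 fold change -0.83 ± 0.19, SE; DESeq2 adjusted p = 0.0029, and 0.31 without the block). Without hemizygous 2 the value was -0.55. ZIC1 overlaps ZIC4 on the opposite strand, and reads of the pair cannot be told apart.

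ZNF677, a zinc-finger gene, was at 47.5 and 38.4 CPM in hemizygous and 27.9 and 23.5 CPM in homozygous samples, against 24.8 and 20.01 CPM in wild type. It fell with the block (-0.74 ± 0.18, SE; DESeq2 adjusted p = 0.00046). PRTG, protogenin, a receptor of the immunoglobulin superfamily in early embryos, was at 26.6 and 20.6 against 15.1 and 13.6 CPM and fell with the block (-0.71 ± 0.17, SE; DESeq2 adjusted p = 0.036). For both genes the homozygous and hemizygous samples did not overlap, a condition for naming them, and neither passed DESeq2 without the block.

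ALPK3, an alpha-kinase gene known from heart muscle, was at 51.2 and 36.0 CPM in hemizygous and 29.8 and 26.3 CPM in homozygous samples. KLHL4, a kelch-like gene, was at 48.6 and 28.2 against 27.9 and 19.6 CPM, and LIMCH1, an actomyosin regulator, at 6.15 and 1.25 against 1.15 and 0.615 CPM. All of these fell with the block (DESeq2 adjusted p = 0.031, 0.0091 and 0.044) and did not pass without it. In KLHL4 and LIMCH1 the margin between hemizygous 2 and homozygous 1 was narrow. In fits without the block, leaving out hemizygous 1 moved the log2 fold change from -0.63 to -0.36 for ALPK3 and from -0.69 to -0.24 for KLHL4. For LIMCH1 it went from -2.05 to -0.50, and without homozygous 2 it was -0.46 for KLHL4.

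Of the 24 genes that DESeq2 called with the block, 20 had no overlap between the 2 genotypes. Among all genes, 11.0% had both homozygous samples above both hemizygous samples and 10.4% had both below. Calls and overlap were read from the same samples, so the larger share among called genes does not support the calls. Called genes with overlap included FBN2, fibrillin 2, FREM2, an extracellular matrix protein, and CANX, calnexin, named once their values were known. FBN2 was at 137 and 57.7 CPM in hemizygous 1 and 2 and at 67.3 and 46.2 CPM in homozygous 1 and 2, FREM2 at 248 and 127 against 157 and 100 CPM, and CANX at 31.1 and 5.60 against 9.50 and 3.54 CPM. In these 3 genes replicate 1 was the higher sample of each genotype, and within each replicate number the homozygous sample was the lower one. The fit without hemizygous 1 had no block and set hemizygous 2 against both homozygous samples. The log2 fold changes were then -0.02 for FBN2, 0.02 for FREM2 and 0.22 for CANX. When any other edited sample was left out, they ran from -1.28 to -0.53 for FBN2, from -0.95 to -0.26 for FREM2 and from -2.37 to -0.95 for CANX.

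The differences of replicate 1 and of replicate 2 were not alike across genes. The log2 difference between homozygous 1 and hemizygous 1 exceeded 2-fold in 310 genes, and that between homozygous 2 and hemizygous 2 in 58. Both were beyond 2-fold in the same direction in 13 genes higher and 6 genes lower in homozygous samples, and in opposite directions in 2. The Pearson correlation of the 2 differences across genes was 0.18, a description over genes that share libraries. ZNF560, a zinc-finger gene, moved in opposite directions, with 0.730 and 21.9 CPM in hemizygous 1 and 2, 3.68 and 3.69 CPM in homozygous and 19.2 and 18.1 CPM in wild-type samples. ITPK1, an inositol phosphate kinase gene, was at 28.0 CPM in hemizygous 2 and at 0.913 to 1.33 CPM in the other 5 samples. Without hemizygous 1, edgeR called ASMTL (adjusted p = 0.00849), ITPK1 (0.00761) and ZNF560 (0.0128) lower in homozygous samples, a count of 3 that rests on hemizygous 2 as the lone sample of its genotype.

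**Figure D2:**
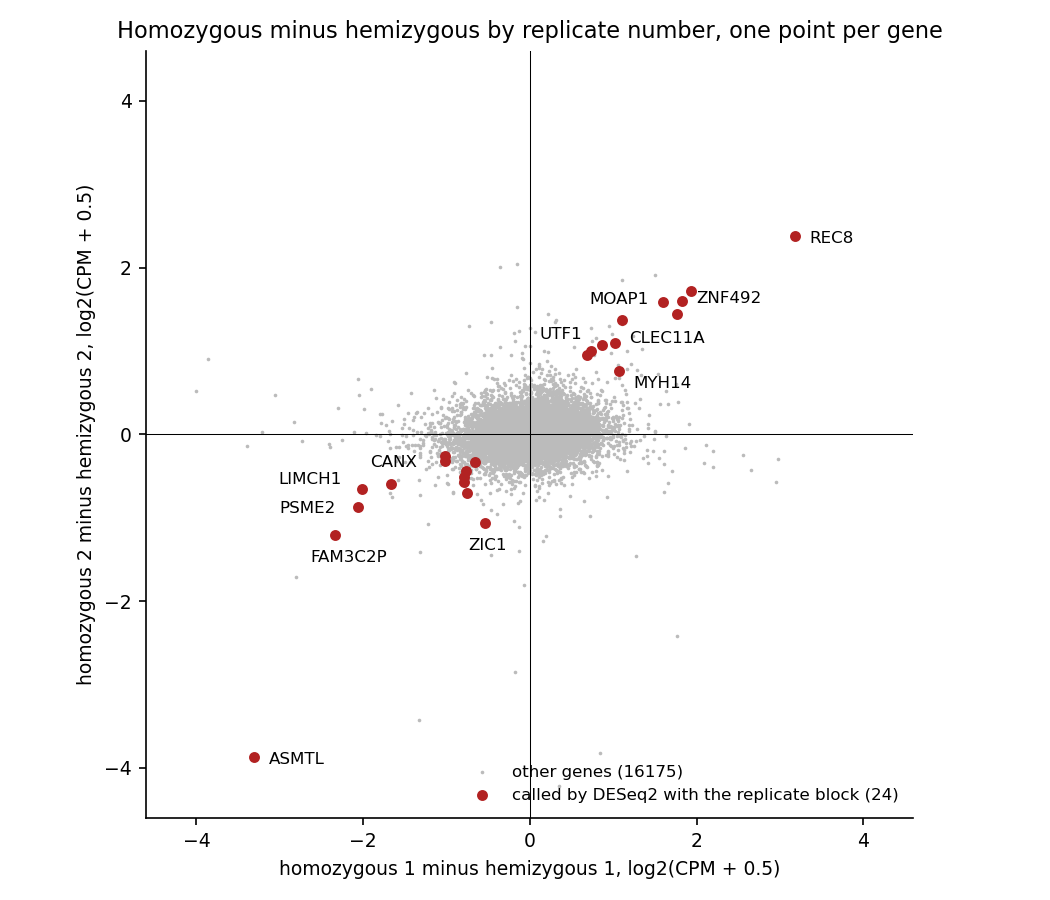
Each point is a gene, with the log2(CPM + 0.5) difference homozygous 1 minus hemizygous 1 on the horizontal axis and homozygous 2 minus hemizygous 2 on the vertical axis, and the 24 genes called by DESeq2 with the replicate block in red. The cloud is wider along the replicate 1 axis, and REC8 and ASMTL lie at opposite ends with both differences of the same sign.

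In a stretch of chromosome 19 neighbouring genes had differences in the same direction. From IZUMO2 to CLEC11A (GRCh38, 19:50152548-50725718), all 16 measured genes had a log2 fold change above 0, against 49.9% of all genes, and 15 had both homozygous samples above both hemizygous samples, against 11.0% of all genes. The median was 0.96, from 0.15 to 1.50, and it was 0.86 in replicate 1 and 0.75 in replicate 2. The 8 measured genes before the stretch had a median of 0.10 and the 8 after it 0.05, and none of these 16 flanking genes had both homozygous samples above both hemizygous samples. Among 15538 runs of 16 neighbouring measured genes none had a higher median, and overlapping runs of the same place shared it. The stretch was outlined after its values were seen, so its counts are a description and have no test.

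MYH14, a nonmuscle myosin heavy chain, was at 67.1 and 63.2 CPM in homozygous, 31.8 and 37.1 CPM in hemizygous and 54.5 and 70.6 CPM in wild-type samples. It rose in DESeq2 (log2 fold change 0.92 ± 0.17, SE; adjusted p = 0.018, and 2.1e-06 with the replicate block). EMC10, a subunit of the membrane protein insertion complex of the endoplasmic reticulum, was at 99.5 and 92.8 CPM in homozygous, 59.8 and 46.0 CPM in hemizygous and 84.8 and 89.2 CPM in wild-type samples. It also rose (0.86 ± 0.16, SE; DESeq2 adjusted p = 0.018, and 4.2e-06 with the block). For both genes the hemizygous samples were the low ones and the homozygous samples were near wild type.

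CLEC11A, a secreted growth factor of the C-type lectin family at the end of the stretch, was at 4.10 and 7.46 CPM in homozygous and 1.77 and 3.23 CPM in hemizygous samples. It rose with the block (1.20 ± 0.45, SE; DESeq2 adjusted p = 0.023) and did not pass without it, and the value was 0.71 without homozygous 2. NR1H2, the oxysterol receptor LXR-beta, lies inside the stretch and was at 62.3 and 66.8 CPM in homozygous and 44.8 and 59.6 CPM in hemizygous samples, all above wild type at 37.5 and 43.9 CPM. POLD1, the catalytic subunit of DNA polymerase delta, was the 1 gene of the 16 with overlapping groups, at 97.4 and 80.8 against 75.1 and 85.9 CPM. Over the stretch the median log2 ratio to the wild-type mean was -0.86 in hemizygous and 0.11 in homozygous samples, and in 10 of the 16 genes both hemizygous samples were below both wild-type samples. No homozygous pair was below both wild-type samples in these 16 genes.

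**Figure D3:**
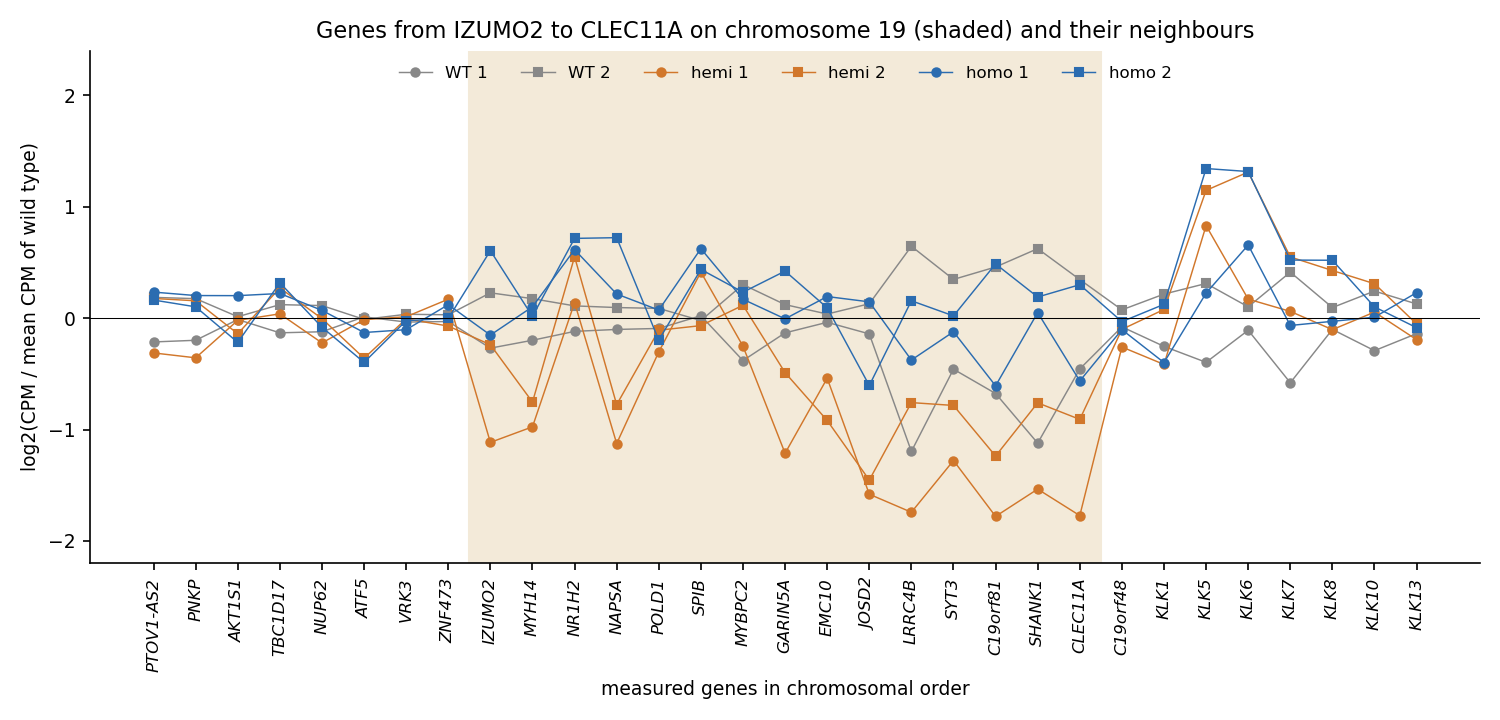
Log2 ratio of each sample's CPM to the wild-type mean for 15 of the 16 genes from IZUMO2 to CLEC11A (shaded) and 8 measured genes on each side, in chromosomal order. Both hemizygous samples lie below all 4 others at MYH14, NAPSA, GARIN5A, EMC10, JOSD2, SYT3, C19orf81 and CLEC11A, and at no plotted gene outside the shaded part.

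DICER1 and its partners had small differences. DICER1 was at 129 and 118 CPM in homozygous 1 and 2, 118 and 96.4 CPM in hemizygous 1 and 2, and 169 and 126 CPM in wild type. The fitted difference on the log2 scale was 0.20 ± 0.19 (SE; edgeR adjusted p = 0.999), and the 2 genotypes overlapped, since homozygous 2 and hemizygous 1 were level. These counts do not tell the alleles apart, so they do not check the S1344L label. The log2 fold change was 0.02 for DROSHA and 0.09 for DGCR8, which cut primary transcripts, 0.03 for XPO5, which exports precursors, 0.15 for TARBP2, a partner of DICER1, and -0.12 for AGO2, which carries mature microRNAs. Of 25 genes of microRNA processing, 14 were above 0 with a median of 0.02, against -0.00035 for all genes, and no test called any of them. TNRC6A, a scaffold of microRNA silencing, had the largest value, 0.42 ± 0.34 (SE), from 11.5 and 8.10 against 6.75 and 7.91 CPM.

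Markers of the labelled cell type were present in every sample. All 11 markers of primed embryonic stem cells were measured, and their summed level was 12139.4 and 11051.4 CPM in hemizygous 1 and 2 and 11271.0 and 10695.1 CPM in homozygous 1 and 2. POU5F1, the OCT4 gene, was at 84.4 and 128 CPM in hemizygous and 107 and 129 CPM in homozygous samples, and SOX2 at 353 and 419 against 374 and 412 CPM. NANOG was at 196 and 182 against 158 and 185 CPM. LIN28A, a binder of let-7 precursors, was at 2114 and 2250.3 against 2473 and 2006 CPM, and its paralog LIN28B at 274 and 182 against 209 and 165 CPM. Of these 5 genes only NANOG and LIN28B had fitted values below 0, at -0.14 and -0.28, and none was called by any test.

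Of 26 core pluripotency genes 13 were above 0, with a median of 0.00, and UTF1 was the 1 member called. DPPA2, a chromatin factor of early embryos, was at 40.1 and 43.8 CPM in homozygous and 33.4 and 37.4 CPM in hemizygous samples (0.25 ± 0.13, SE; edgeR adjusted p = 0.999). DNMT3B, a de novo DNA methyltransferase, was at 2214 and 2313 against 2959 and 2328 CPM (-0.22 ± 0.16, SE), and hemizygous 1 was the high sample. FGF4, a growth factor secreted by these cells, was at 30.2 and 28.3 against 24.0 and 25.1 CPM. Among 9 measured naive pluripotency genes, DPPA5 was at 12.3 and 22.4 CPM in homozygous and 6.60 and 15.3 CPM in hemizygous samples, so that replicate 2 was the higher in each genotype.

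Markers of other cell types differed by type, and ZIC1 was the 1 marker called. For neural ectoderm, 4 of 6 markers were measured, with PAX6 and SOX1 not analysed here, and their summed level was 573.8 and 477.5 CPM in hemizygous and 429.8 and 418.5 CPM in homozygous samples, mostly from NES. NES, the nestin gene, was at 515 and 400 against 386 and 371 CPM, and OTX2 at 13.7 and 12.4 against 10.2 and 11.4 CPM. In 3 of the 4 both homozygous samples were below both hemizygous samples, beside 10.4% of all genes. All 6 neuronal markers were measured, with sums of 81.1 and 81.3 CPM in hemizygous and 79.3 and 83.4 CPM in homozygous samples. In 2 of the 6, MAP2 and DCX, both homozygous samples were below both hemizygous samples, beside 10.4% of all genes. In 0 of the 6 both were above, beside 11.0% of all genes. MAP2, a dendritic microtubule protein, was at 9.78 and 6.95 against 5.31 and 5.27 CPM, and DCX at 5.58 and 5.58 against 4.01 and 4.65 CPM.

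Mesendoderm markers summed to 4.9 and 3.5 CPM in hemizygous and 4.2 and 3.2 CPM in homozygous samples from 2 of 9 measured. Neural crest markers summed to 31.5 and 32.9 CPM in hemizygous and 32.2 and 35.0 CPM in homozygous samples from 2 of 5 measured. Mesoderm markers, 5 of 6 measured, summed to 339.5 and 402.8 against 386.7 and 372.4 CPM, and in 2 of them, HOXB1 and TBX6, both homozygous samples were above both hemizygous samples, beside 11.0% of all genes. HOXB1 was at 2.11 and 2.63 against 1.04 and 1.97 CPM and TBX6 at 5.99 and 7.16 against 2.92 and 5.96 CPM. Trophoblast and amnion markers, 3 of 7 measured, summed to 49.4 and 59.2 against 48.9 and 54.7 CPM. In bulk RNA, fewer cells of a type and less RNA per cell cannot be told apart.

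Fibroblast and matrix genes had the lowest median of the gene lists compared. The summed level of 6 measured markers of fibroblasts and mesenchyme was 1173.2 and 927.7 CPM in hemizygous and 847.0 and 898.9 CPM in homozygous samples. Of 18 measured genes of the wider list, 3 were above 0, and in 6 (33.3%) both homozygous samples were below both hemizygous samples, beside 10.4% of all genes. COL1A1 and COL1A2, the chains of type I collagen, were at 190 and 179 against 324 and 213 CPM and at 99.2 and 94.1 against 150 and 105 CPM, with hemizygous 1 the highest sample in each. The median of -0.33 was -0.44 in replicate 1 and -0.08 in replicate 2, and it was -0.04 without hemizygous 1. No test called a member.

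The median of cholesterol genes also moved when hemizygous 1 was left out. Of 25 genes of cholesterol synthesis and uptake 5 were above 0, with a median of -0.26. Their summed level was 4596 and 2659.9 CPM in hemizygous 1 and 2, 3252 and 2489.7 CPM in homozygous 1 and 2, and 4518 and 2928 CPM in wild type 1 and 2. Replicate 1 was thus the higher sample in all 3 genotypes. The median was -0.39 in replicate 1 and -0.09 in replicate 2. In the fit without hemizygous 1, which had no block, it was 0.12.

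Amino acid stress genes also had a median that moved without hemizygous 1. Of 23 genes of cell stress and the unfolded protein response 6 were above 0, with a median of -0.11, and in 8 (34.8%) both homozygous samples were below both hemizygous samples, beside 10.4% of all genes. In 3 (13.0%) both were above, beside 11.0% of all genes. SLC7A11, the cystine transporter, was at 58.5 and 16.5 CPM in hemizygous and 16.5 and 16.2 CPM in homozygous samples, and ASNS, asparagine synthetase, at 5.19 and 2.66 against 2.07 and 2.51 CPM. In both genes hemizygous 1 was the high sample, and hemizygous 2 was near the homozygous samples. Without hemizygous 1 the median of the list was -0.01, and no test called a member.

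Hypoxia and glycolysis genes were highest in homozygous 1. Of 33 measured, 31 were above 0 with a median of 0.29, which was 0.66 in replicate 1 and -0.10 in replicate 2. Without homozygous 1 the median was -0.07. DDIT4, an inhibitor of mTORC1 induced by low oxygen, was at 149 and 35.8 CPM in homozygous 1 and 2 and at 34.7 and 45.7 CPM in hemizygous 1 and 2, and BNIP3, a mitophagy receptor, at 257 and 105 against 55.9 and 120 CPM. EGLN1, the prolyl hydroxylase that marks HIF1A for decay, was at 6.65 and 2.83 against 2.66 and 2.18 CPM, and ALDOC, an aldolase of glycolysis, at 91.6 and 72.3 against 56.6 and 71.0 CPM. The 33 genes summed to 13149.7 CPM in homozygous 1 and to 8815 to 10147 CPM in the other 5 samples, and no test called a member. DDIT4 was named once its values were known.

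Metallothioneins, small proteins that bind zinc and copper, formed with the zinc transporter gene SLC30A1 the list with the highest median outside chromosome 19. Of 9 measured 8 were above 0, with a median of 0.40, from 0.82 in replicate 1 and 0.11 in replicate 2. MT1X was at 50.5 and 59.2 CPM in homozygous and 29.9 and 47.6 CPM in hemizygous samples, and MT1H at 63.1 and 66.7 against 35.4 and 63.0 CPM. Hemizygous 1 was the low sample of the 4 in both genes, and without it the median was -0.01. No test called a member. Metallothioneins are near copies of each other, and how reads were shared between them is not given in the sources used here.

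Most ribosomal protein genes and nuclear genes of respiration had fitted values slightly above 0, and no test called any of them. Of 82 cytosolic ribosomal protein genes 77 were above 0 with a median of 0.20, and in 62 the homozygous sample was the higher one in both replicates, beside 27.3% of all genes. In 5 (6.1%) both homozygous samples were above both hemizygous samples, beside 11.0% of all genes, and RPS29 and RPL26 are among these 5. RPS29 was at 363 and 419 against 283 and 350 CPM and RPL26 at 71.5 and 72.2 against 59.2 and 61.6 CPM. The median was 0.31 in replicate 1 and 0.08 in replicate 2, and 0.00 without hemizygous 1, the sample with the lowest share of ribosomal protein counts. The list of nuclear genes of oxidative phosphorylation was picked by name and includes pseudogenes such as UQCRBP1 and ATP5MC2P4. Of its 77 genes 65 were above 0 with a median of 0.14, which was 0.10 in replicate 1 and 0.13 in replicate 2. Both homozygous samples were above both hemizygous samples in 10 of the 77 (13.0%), among them NDUFB8, a complex I subunit, which was at 7.73 and 10.5 against 5.74 and 6.79 CPM. That median was 0.03 without hemizygous 1 and 0.00 without homozygous 2, and the 13 genes of the mitochondrial genome had a median of -0.01, from -0.27 in replicate 1 and 0.24 in replicate 2. Of 72 mitochondrial ribosomal genes 55 were above 0 with a median of 0.07, and in 11 (15.3%) both homozygous samples were above both hemizygous samples. MRPS36, 1 of these 11, was at 15.4 and 12.8 against 6.54 and 10.2 CPM. The 13 genes of the mitochondrial genome were not called either.

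Zinc-finger genes named ZNF leaned towards homozygous samples in both count and overlap. Of 463, 267 were above 0 with a median of 0.03, and 75 (16.2%) had both homozygous samples above both hemizygous samples, beside 11.0% of all genes, while 26 (5.62%) had both below, beside 10.4%. ZNF600 was at 52.1 and 42.2 CPM in homozygous, 32.3 and 34.7 CPM in hemizygous and 26.7 and 24.9 CPM in wild-type samples (0.49 ± 0.15, SE; DESeq2 adjusted p = 0.27 with the replicate block). ZNF385D was on the other side, at 3.70 and 5.34 against 10.1 and 8.07 CPM. The median was 0.07 in replicate 1, -0.01 in replicate 2 and -0.03 without homozygous 1. DESeq2 called ZNF492 without the block and ZNF677 in addition with it.

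Genes of chromosome band 20q11.21, a band that human stem cells often gain in culture, were mostly lower in homozygous 1 than in hemizygous 1. Of 17 measured 1 was above 0, with a median of -0.25, and in 4 (23.5%) both homozygous samples were below both hemizygous samples, beside 10.4% of all genes. ASXL1, a chromatin regulator of that band, was at 32.6 and 29.7 CPM in homozygous and 55.1 and 32.7 CPM in hemizygous samples. The median was -0.38 in replicate 1 and -0.10 in replicate 2, and -0.04 without hemizygous 1, and no test called a member. Copy number was not measured in these files.

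WNT, Nodal and TGF-beta, FGF and ERK feedback, p53 and interferon lists had medians from -0.12 to -0.04. Immediate early genes had a median of 0.08 with 12 of 15 above 0, and retinoic acid genes 0.01 with 5 of 10. WNT genes had a median of -0.12, with 7 of 21 above 0. SFRP1, a secreted WNT antagonist, was at 38.3 and 45.0 CPM in homozygous and 61.8 and 68.7 CPM in hemizygous samples, and PRICKLE1, of planar cell polarity, at 1.37 and 1.21 against 5.37 and 2.37 CPM. Both had the homozygous samples below all 4 others, with DESeq2 adjusted p = 0.078 and 0.064 with the replicate block. Nodal and TGF-beta genes had a median of -0.11 with 5 of 24 above 0, FGF and ERK feedback genes -0.04 with 9 of 23, p53 and cell death genes -0.06 with 11 of 27, and interferon and double-stranded RNA genes -0.06 with 8 of 23. OAS3, an interferon-induced oligoadenylate synthetase, was at 1.12 and 0.665 against 1.90 and 1.58 CPM. MOAP1 was the 1 member called in these lists.

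**Figure D4:**
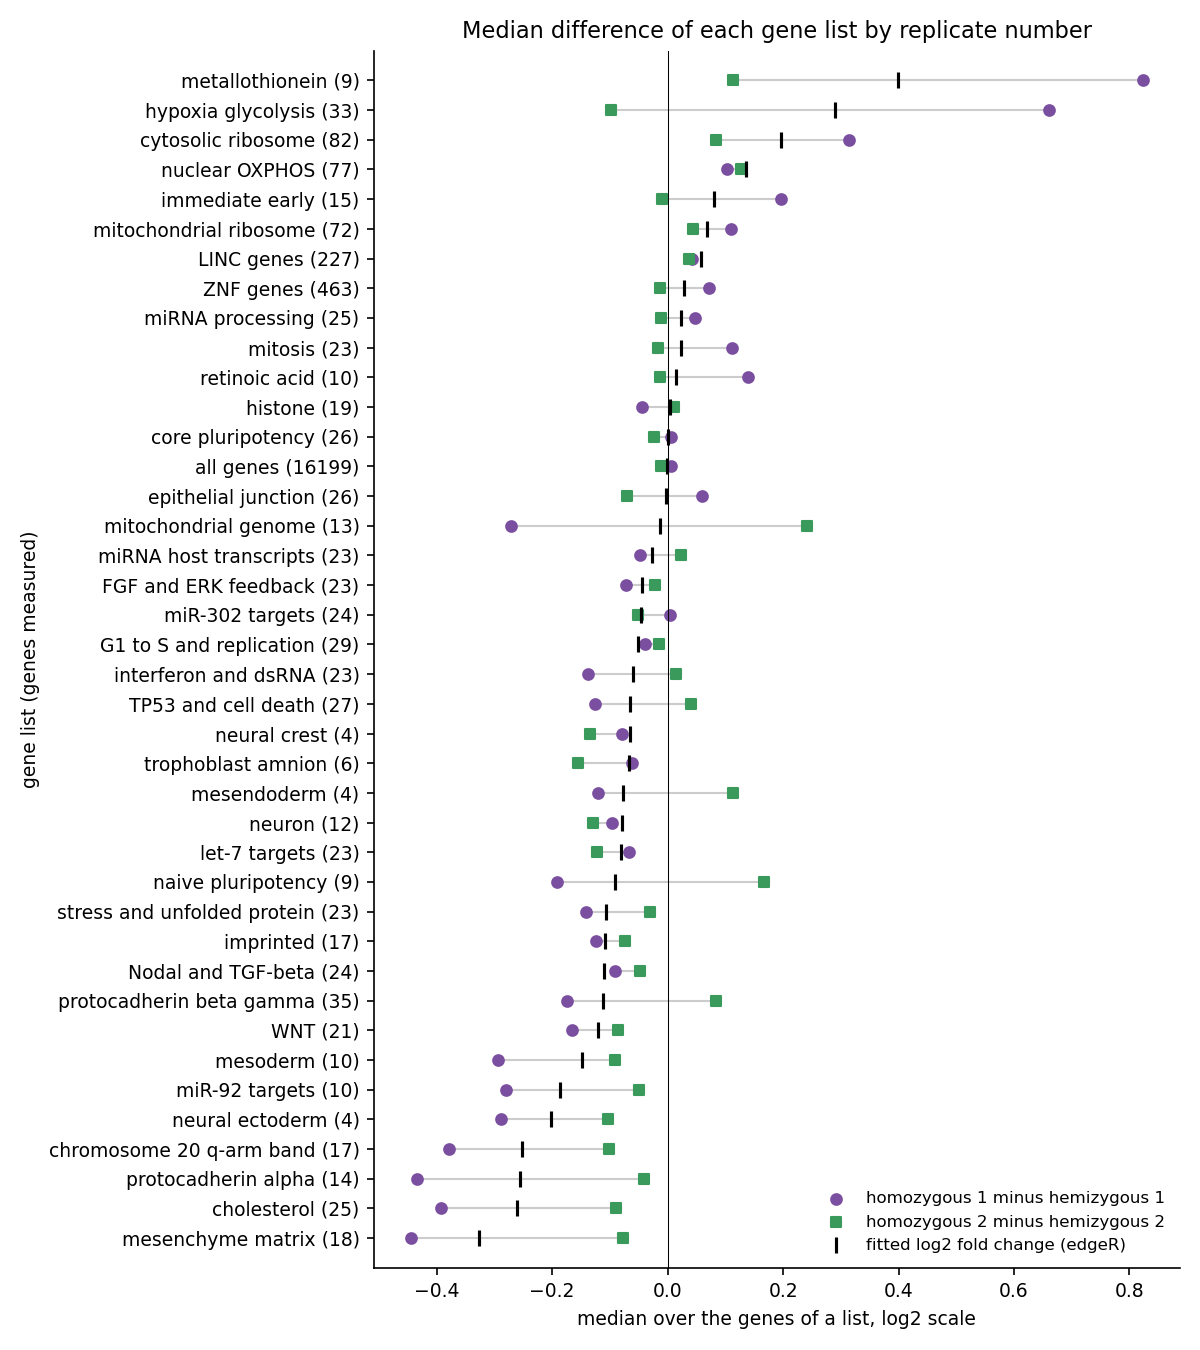
Median over each gene list of the log2 difference in replicate 1 (purple circles), in replicate 2 (green squares) and of the fitted log2 fold change (black bars), with the number of measured genes. Long grey lines at the top and bottom join values of unequal size, as for hypoxia and glycolysis genes at 0.66 and -0.10.

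A few single genes were named by the lowest unadjusted p and were called by no test. LINC01090 was at 3.11 and 2.78 CPM in homozygous and 1.33 and 0.930 CPM in hemizygous samples (1.39 ± 0.29, SE), and PCDHB17P, a protocadherin pseudogene, at 1.96 and 1.94 against 0.600 and 0.721 CPM (1.55 ± 0.29, SE). BEST1, a chloride channel gene that overlaps FTH1 on the opposite strand, was at 2.53 and 2.17 against 0.913 and 0.569 CPM (1.68 ± 0.33, SE). SLC25A26, the mitochondrial S-adenosylmethionine carrier, was at 0.793 and 3.89 CPM in homozygous and 8.53 and 13.8 CPM in hemizygous samples (-2.26 ± 0.66, SE), with wild type at 2.66 and 2.71 CPM. CDIP1, a p53 target of cell death, was at 4.85 and 4.28 against 6.88 and 8.46 CPM (-0.75 ± 0.22, SE). For all of these the 2 genotypes did not overlap, which was a condition for naming them, and edgeR gave adjusted p = 0.999.

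Genes that earlier results set apart between hemizygous and wild-type samples were read here between the edited genotypes. MIR4458HG, a microRNA host transcript, was at 0.156 and 0.380 CPM in hemizygous, 0.463 and 1.01 CPM in homozygous and 3.70 and 3.48 CPM in wild-type samples. HTR7, a serotonin receptor gene, was at 9.26 and 13.5 CPM in hemizygous, 8.02 and 8.99 CPM in homozygous and 25.5 and 25.6 CPM in wild-type samples. At both genes the 2 edited genotypes lay well below wild type, with a difference between them of 1.39 ± 0.54 (SE) for MIR4458HG and -0.42 ± 0.21 (SE) for HTR7 on the log2 scale, and neither was called.

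For the seeds printed above and others, genes were grouped by a match to the seed in their longest annotated 3′ UTR. The match was searched on the message strand alone among 13221 genes with such a UTR, whose median log2 fold change was -0.02. AGCACTT, the match to miR-302a-3p, was present in 26.8% of them, with a median of -0.06, and GTTTAAG, the match to miR-302a-5p, in 13.1% with a median of -0.09. GCACTTT, the match to miR-17-5p, which overlaps AGCACTT in its letters GCACTT, was present in 26.4% with a median of -0.06, and ACTGCAG, the match to miR-17-3p, in 22.6% with -0.05. GTGCAAT, shared by miR-92a-3p and miR-367-3p, was present in 13.7% with -0.08, CCCAACC of miR-92a-1-5p in 13.7% with -0.02, and GCAACAG of miR-367-5p in 14.7% with -0.05. CTACCTC of let-7a-5p was present in 12.9% with -0.04 and TTGTATA of let-7a-3p in 21.5% with -0.09.

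Both arms of the hairpins printed above had medians below 0. So did all genes with an annotated 3′ UTR, at -0.02, with 46.6% above 0. Over 20 seeds, 12 of 12 seeds of 5p strands had a median below 0, from -0.10 to -0.02, and 7 of 8 seeds of 3p strands, from -0.09 to 0.01. Genes with a match have long 3′ UTRs, and UTR length moved with the same values. In 4 equal groups by 3′ UTR length, from short to long, the median of all genes was 0.07, 0.00, -0.04 and -0.09, and it was 0.12, 0.02, -0.06 and -0.12 in replicate 1 and 0.02, -0.01, -0.04 and -0.05 in replicate 2. Genes with AGCACTT had a median UTR of 3142 nt against 1310 nt for genes without it. The part of UTR length in the seed medians was not tested.

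**Figure D5:**
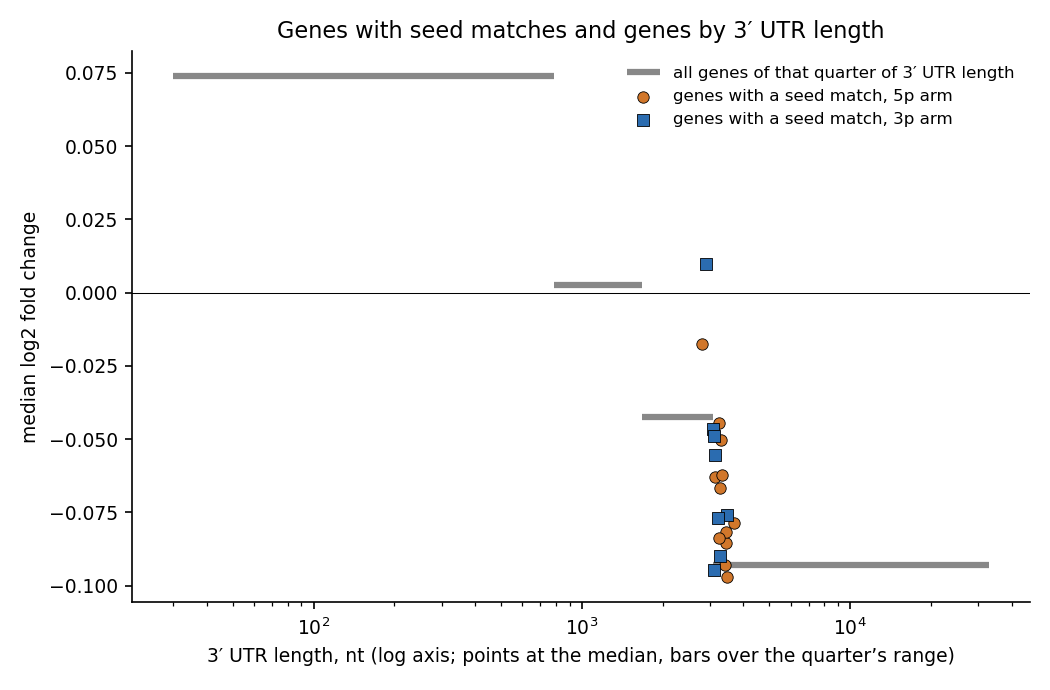
Median log2 fold change of genes with a seed match, placed at their median 3′ UTR length on a log axis, for 5p seeds (orange circles) and 3p seeds (blue squares), with grey bars for all genes of 4 equal groups by UTR length. Most points lie between the bars of the 2 groups with the longest UTRs, at -0.04 and -0.09, whichever arm the seed comes from.

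Lists of targets known from the literature had 1 member called, PRTG of the let-7 list, with the replicate block. Of 24 miR-302 targets 9 were above 0 with a median of -0.05, of 23 let-7 targets 9 with -0.08, and of 10 miR-92 targets 1 with -0.19, which was 0.01 without hemizygous 1. IGF2BP3, an RNA-binding protein gene of the let-7 list, was at 354 and 346 CPM in homozygous and 445 and 408 CPM in hemizygous samples (-0.28 ± 0.13, SE; edgeR adjusted p = 0.999). Among 23 host transcripts of microRNAs 11 were above 0, with a median of -0.03.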

How the data were processed

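RNA-seq libraries of 6 H1 samples were made from total RNA with an unstranded kit (TruSeq RNA Library Prep Kit v2), per the labels' protocols. The authors deposited 1 table of raw counts by gene, unnormalized. Reads were processed with cutadapt and HISAT2 and the build was hg38, per the submitters' processing notes. Counting program, annotation and versions: not given in the sources used here. Every gene has over 0.5 CPM in at least 3 samples, so genes off in most samples were not analysed. Listed totals were 38164848 to 52924532 counts per sample, from reads without molecular identifiers. Of 16199 genes, 15913 found a match in GENCODE release 29 (GRCh38): 14864 through the current symbol, 985 through the ID and 64 through that release's symbol.

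The homozygous minus hemizygous contrast was fitted over all genes with edgeR 4.0.16 on all 6 samples, with TMM scaling, filterByExpr (0 genes dropped), quasi-likelihood tests and Benjamini-Hochberg adjustment, leaving 3 residual degrees of freedom (2 with the replicate block). DESeq2 1.42.0 and limma-voom (limma 3.58.1) were run with and without the block as alternatives, beside other scalings, filters and leaving out each sample. The fits that left out 1 sample had no block. The fits were run on simulated counts with planted changes and the same spread for every gene. That run checks the code and does not say which test suits these data. With the genotype means removed, same-numbered hemizygous and homozygous samples deviated together (correlation 0.506, and 0.769 and 0.380 for each with wild type), but with 2 numbers of unstated meaning the pairing is not established. Replicate libraries differed beyond counting noise (chi-square per degree of freedom 90.3 for hemizygous, 41.7 for homozygous). With 2 samples against 2, an exact permutation test of a single value cannot go below p = 0.333, so none was used.

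Differences by replicate number are log2(CPM + 0.5). Seed matches were read in 3′ UTRs of GENCODE release 29, and mature sequences are from RefSeq. Genes to name were 11 fixed genes of microRNA processing and pluripotency. Added to these were genes called by edgeR, then edgeR with the block, DESeq2 and DESeq2 with the block, with a mean CPM of at least 1 and no overlap (up to 10 per direction). The 8 per direction with the lowest p were taken under the same conditions. Up to 2 members without overlap per list and direction and 29 genes singled out by earlier results completed the rule. The members, lists and rule were chosen with earlier results of these data known. Some single genes are not reported here. Python 3.11.15 with pandas and matplotlib read the annotation and drew the figures.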

Additional observations from a re-analysis of the deposited data

How the results depend on the processing

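The edgeR count of 0 genes higher and 0 lower was the same with RLE, upper-quartile or no scaling factors, with the 4 edited samples alone and in limma-voom. The fit without the low-count filter, 1 of the 18 alternatives, was the same as the main fit, since the filter dropped 0 genes. With the replicate block it was 0 higher and 1 lower (ASMTL) in edgeR and in limma-voom, and 1 higher (REC8) and 1 lower (ASMTL) with the 4 edited samples alone and the block. DESeq2 called 8 higher and 2 lower without the block and 11 higher and 13 lower with the block, so pairing moved its count from 10 to 24. With a mean CPM of at least 5, edgeR called 1 lower (ASMTL). Leaving out 1 sample at a time gave 0 higher throughout and 0 to 3 lower, the 3 without hemizygous 1. The cause was not tested. The median of the IZUMO2 to CLEC11A stretch stayed above 0 in all 18 alternatives, from 0.73 to 1.33. Scaling moved the median of all genes to -0.0071 (RLE), 0.026 (upper quartile) and 0.015 (no factors), and the share above 0 to 48.6%, 55.5% and 53.04%.

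No named gene changed sign under another test, scaling or filter, and 13 did so when a sample was left out, in fits without the block. Over the fits that left out 1 sample, the log2 fold change ran from -0.35 to 0.077 for AGO2, from -2.37 to 0.22 for CANX, from -0.17 to 1.89 for DDIT4, from -0.12 to 0.16 for DROSHA, from -0.95 to 0.019 for FREM2, from -4.58 to 0.36 for ITPK1, from -0.12 to 0.18 for LIN28A, from -0.55 to 0.040 for LIN28B, from -0.12 to 0.48 for POU5F1, from -0.090 to 0.15 for SOX2, from -0.029 to 0.35 for TARBP2, from -0.18 to 0.22 for XPO5 and from -2.57 to 2.33 for ZNF560. Over all genes the 2 samples of a genotype differed beyond counting noise, and genes below 1 CPM, such as REC8 and MOAP1 in hemizygous samples, rest on few counts. What limited the comparison at each gene was not tested.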
